A study of Drosophila melanogaster with 3 samples.

Results

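The binding of Knirps was described around 10 genes that direct the formation of mesoderm, muscle and heart in the fruit fly Drosophila melanogaster. The genes, tin, bap, bin, zfh1, nau, Hand, Mef2, htl, pyr and ths, were taken by name from 13945 protein-coding genes on 6 chromosome arms. The rule used no measured value, but the genes were picked with earlier results of these data known. For each gene the window was the gene body with 10 kb on either side, and every peak whose summit lay in the window was counted. Chromatin immunoprecipitation with sequencing (ChIP-seq), which recovers the DNA bound by a protein, had been done with an antibody against green fluorescent protein (GFP) on whole embryos of both sexes aged 0 to 14 h. The embryos came from a transgenic line, kni-GFP, that stably expresses Knirps with GFP at its C-terminal end, and 3 biological replicates form the single group of the study. No sample of another genotype, stage or treatment was analysed here, so no comparison between conditions was possible. The labels call the change an insertion that targets kni, and whether untagged Knirps is also made in this line was not stated. A summit that is weak in all cells of the embryo and 1 that is strong in a few of them cannot be told apart in whole embryos.

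In the fly embryo the mesoderm is set up on the ventral side, spreads beneath the ectoderm under the control of fibroblast growth factor (FGF) signalling, and is then divided into heart, visceral muscle, fat body and somatic muscle. Homeodomain, forkhead, bHLH and MADS-box factors act in turn in this division. Knirps is a zinc-finger protein of the nuclear receptor family, known best as a short-range repressor that acts in the segmentation of the trunk.

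On build dm6 the optimal list of the authors had 7129 peaks, and its signal values, the authors' measure of peak strength over a control, ran from 188 to 5038 with a median of 292. The scale of the signal value was not stated, so it serves here only to rank peaks within a list. The pooled list and each replicate list held 30000 peaks, weak ones included, and the 7129 strongest of the pooled list are the optimal list. The number of reads behind the lists is unknown.

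Knirps summits lay in the windows of 7 of the 10 genes and were missing from those of bap, htl and Hand. Over all protein-coding genes 59.8% had an optimal summit in the same window, so a count of 7 of 10 is close to the background. The 7 genes held 31 summits, of which the weakest had a signal value of 196, the median 308 and the strongest 1615. In number of summits zfh1 came first with 9, followed by Mef2 and ths with 6 each, tin and pyr with 3 each, and bin and nau with 2 each. As many as 9 summits, or more, were found in the windows of 1.93% of all genes, 6 or more in 6.32%, 3 or more in 25.4% and 2 or more in 39.0%. The median over all genes was 1 summit, and the median of the 10 genes was 2.5.

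**Figure D1:**
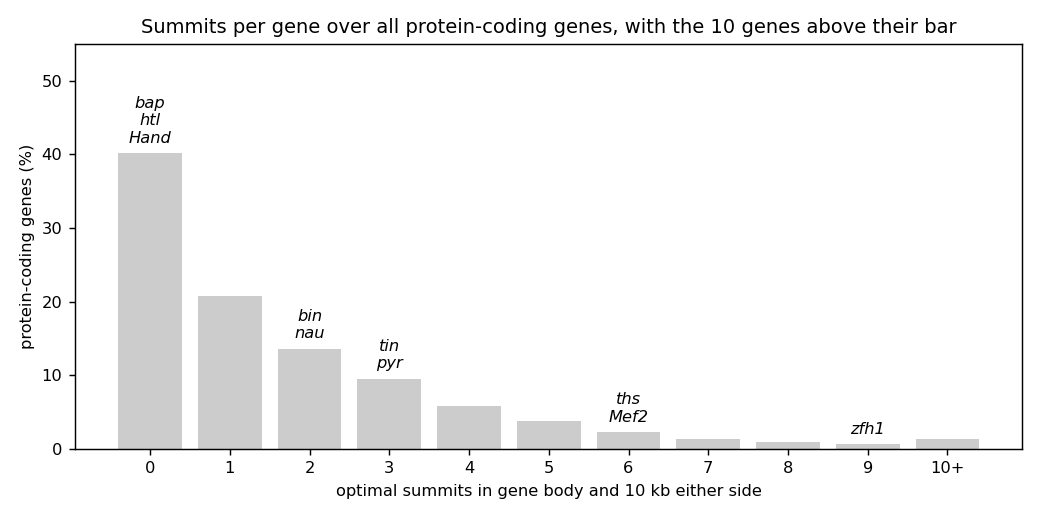
Share of all protein-coding genes (y axis, percent) by the number of optimal summits in the gene body and 10 kb either side (x axis), with the names of the 10 genes above the bar of their own count. The names spread from 0 summits, where 40.2% of all genes lie, to 9 summits for zfh1.

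Over all genes, longer windows held a summit more often. Windows of at most 24 kb held a summit for 54.8% of 9743 genes, and for tin and bin but not bap or Hand among the 4 listed genes of that size. Windows over 40 kb held a summit for 74.2% of 1013 genes and for all 3 listed genes of that size, zfh1, Mef2 and ths. Between these sizes the share was 70.4% of 3189 genes, and 2 of 3 listed genes, pyr and nau but not htl, had a summit. Per 10 kb of window zfh1 had 2.08 summits and tin 1.30, a density reached by 6.26% and 18.9% of all genes. Mef2, pyr, bin, nau and ths had 0.918 to 0.773, reached by 28.2% to 34.5% of all genes. The median density over all genes was 0.443.

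The replicates gave similar numbers of summits in the windows. Among the 7129 strongest peaks of each replicate list, replicates 1 and 2 had 29 summits each in the 10 windows and replicate 3 had 25, on average 27.7 ± 2.31 (SD, n = 3). The same 7 genes had a summit in every replicate, and bap, htl and Hand had none in any. Mef2 varied most, with 6, 6 and 3 summits, whereas zfh1 had 9, 8 and 8 and ths had 6, 5 and 5. An optimal summit was called recovered in a replicate when 1 of that replicate's 7129 strongest summits lay within 100 bp of it. Of the 31 summits, 17 were recovered in all 3 replicates (54.8%), close to the 52.1% of all optimal summits, 13 in 2 replicates and 1 in a single replicate. Replicates 1 and 2 each recovered 90.3% of the 31, against 77.5% and 81.1% of all optimal summits, and replicate 3 recovered 71.0% against 75.1%. Since the replicates were pooled to make the optimal list, their recovery of it is no independent check.

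**Figure D2:**
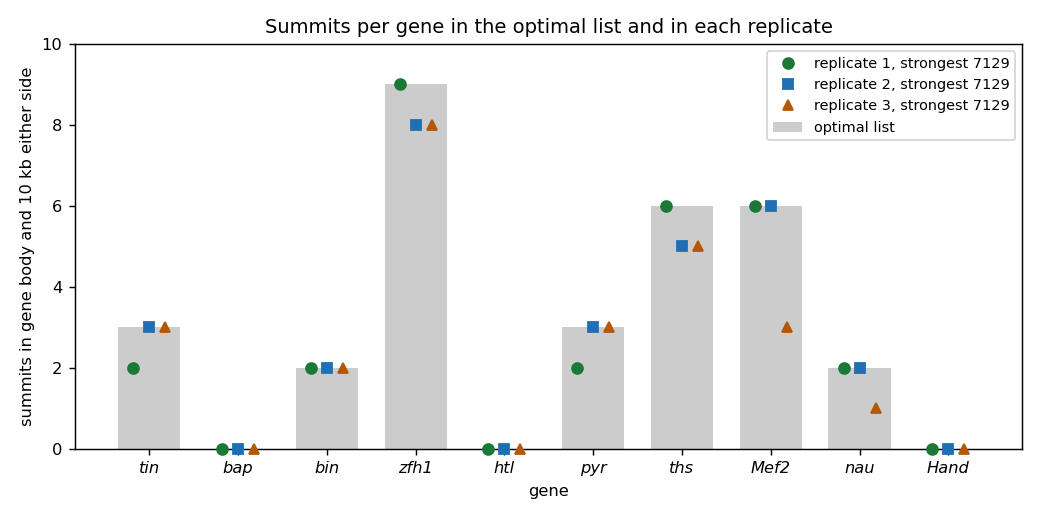
Number of summits (y axis) in the window of each gene (x axis) in the optimal list (grey bars) and among the 7129 strongest peaks of replicates 1, 2 and 3 (points). The points sit at or just under the bar for every gene except Mef2, where replicate 3 had 3 summits against 6 in the optimal list, and bap, htl and Hand are at 0 in every list shown.

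Most of the summits lay in introns, and several of the strongest lay inside or next to a neighbouring gene. Of the 31, 17 were intronic, 7 intergenic, 6 at promoters, taken as the 500 bp around a coding transcript's start, and 1 in a 5' UTR. Introns and promoters of neighbouring genes were counted too, those at mod(mdg4), wts, Pal1 and CG10365 among them. Over all optimal summits 40.7% were intronic, 19.96% intergenic, 37.0% at promoters and 1.04% in a 5' UTR. The body of the gene itself held 15 of the 31, in 4 of 10 genes (zfh1, pyr, ths and Mef2), against 14.7% of all genes with a summit in the body. These 4 have long bodies, from 14083 to 57608 bp, against a median of 2166 bp over all genes. For 25 summits, at 6 of the 10 genes, the nearest start site was that of the listed gene. Over all protein-coding genes, 22% had the start site nearest to an optimal summit. That share counts summits at any distance, whereas the 25 were counted within the windows alone. The 6 exceptions lay at mod(mdg4), wts, Pal1 and CG10365, as described below.

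**Figure D3:**
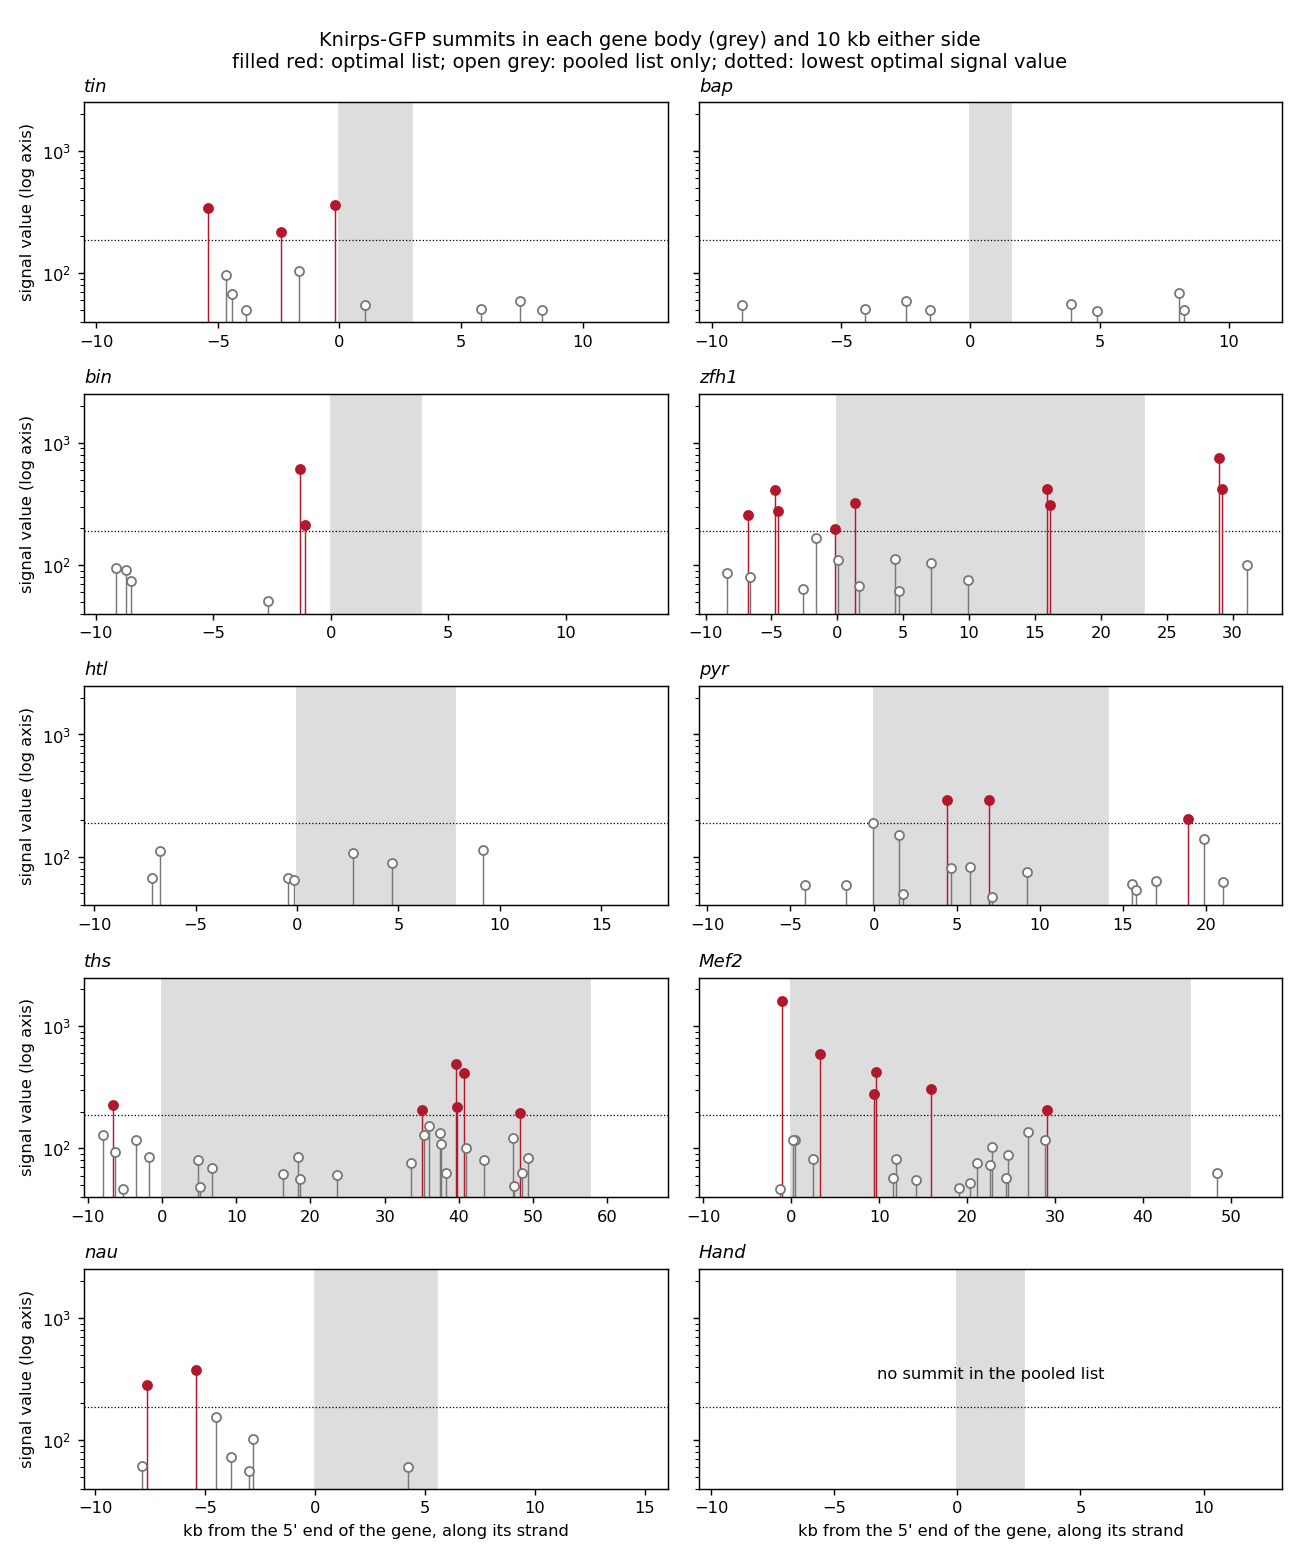
Signal value of each pooled summit (y axis, log axis) against its distance from the 5' end of the gene along its strand (x axis, kb), with 1 panel per gene and the gene body in grey. Filled red points are optimal summits, open grey points are pooled summits below the optimal list, and the dotted line marks the lowest optimal signal value of 188. The highest point, 1615, stands just upstream of Mef2, all points of bap and htl lie under the line, and the panel of Hand is empty.

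The gene tin encodes Tinman, the NK homeodomain protein needed for heart and dorsal mesoderm (FBgn0004110, chr3R:21378977-21381970, plus strand), and its promoter carried the strongest summit of its window. That summit lay 166 bp upstream of the start site, had a signal value of 363 and ranked 2297 in the optimal list. It ranked 2864, 3411 and 1585 in replicates 1 to 3, so all 3 lists placed it within their strongest 7129. A summit of nearly the same strength (344, rank 2552) lay 5405 bp upstream of tin inside mod(mdg4), the gene of a chromatin protein that works at insulators. It stood 3 bp downstream of the start site of the overlapping gene model pre-mod(mdg4)-AA and ranked 1835, 3754 and 4706. The weakest of the 3 (216, rank 5800) also lay inside mod(mdg4), in an intron 823 bp downstream of a start site of that gene, and ranked 13182, 4788 and 5256, outside the strongest peaks of replicate 1. Both mod(mdg4) summits are therefore inside a neighbour, and tin had no optimal summit in its body.

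The 201 bases around the promoter summit of tin are shown because it is the only optimal summit nearest to the start site of this heart gene. Sequences here are from the Release 6 genome (dm6), plus strand, with the summit at the middle base. Capitals mark matches, on either strand, to any of 8 words set for this description, listed with their shares further on. In the window chr3R:21378711-21378911 the only match is CATATG, an E-box that Twist can bind, which begins 6 bp before the summit.
tin promoter summit: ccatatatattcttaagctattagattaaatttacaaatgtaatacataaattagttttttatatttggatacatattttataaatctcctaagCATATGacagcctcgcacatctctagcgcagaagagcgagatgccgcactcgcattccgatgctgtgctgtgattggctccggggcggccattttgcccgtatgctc

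The gene bap, which encodes the NK homeodomain protein Bagpipe of the visceral muscle (FBgn0004862, chr3R:21388880-21390449, plus strand), had no optimal summit although it begins only 6909 bp past the end of tin. The promoter summit of tin was the optimal summit nearest to bap, 10069 bp from it and so 69 bp outside the window. The pooled list held 8 weak summits in the window, from 69.3 at rank 21538 down to 48.8 at rank 28585. Of these, 1 lay in an intron of tin, and the nearest to the start site of bap lay 1578 bp upstream (rank 28074). The best rank of any summit in the window was 21729 in replicate 1, 20341 in replicate 2 and 10545 in replicate 3, in lists of 30000.

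The gene bin encodes Biniou, the FoxF forkhead protein of the visceral mesoderm (FBgn0045759, chr3L:6990622-6994447, plus strand), and a pair of summits lay together upstream of it. Its main summit lay 1304 bp upstream of the start site with a signal value of 608 and rank 696, and 13.3% of all genes had a summit of that rank or better in their window. In the replicates it ranked 546, 3043 and 502. Replicate 2 stands apart here, and its own strongest summit in the window, at rank 1602, lay 1437 bp upstream of bin and more than 100 bp from either optimal summit. The other optimal summit (211, rank 6025) lay 204 bp from the first, at 1100 bp upstream. It ranked 2957 and 1861 in replicates 1 and 3, and replicate 2 had no summit within 100 bp of it. Both are intergenic, no coding gene covers them, and no optimal summit lay in the body of bin or downstream of it.

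Both windows upstream of bin are shown because the neighbouring summits differ in base composition. At the stronger summit, chr3L:6989218-6989418, G and C made up 23.9% of the 201 bases, the lowest of the 31 summits, and at the weaker, chr3L:6989422-6989622, they made up 48.3%. The first holds CACTTGA, a word of the Tinman protein, read on the minus strand and beginning 28 bp after the summit, and the other holds GAGAG, the word of the GAGA factor, also on the minus strand and 75 bp after its summit.
bin main summit: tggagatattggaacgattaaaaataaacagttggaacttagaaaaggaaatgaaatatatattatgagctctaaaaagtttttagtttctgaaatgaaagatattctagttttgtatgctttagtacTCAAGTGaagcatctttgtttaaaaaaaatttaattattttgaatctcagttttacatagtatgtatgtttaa
bin second summit: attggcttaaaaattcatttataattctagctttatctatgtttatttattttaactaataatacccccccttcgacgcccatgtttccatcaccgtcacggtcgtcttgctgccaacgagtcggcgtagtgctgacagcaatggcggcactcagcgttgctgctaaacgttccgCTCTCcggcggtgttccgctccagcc

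The gene zfh1 encodes a zinc-finger homeodomain repressor with roles in the heart, the gonadal mesoderm and motor neurons (FBgn0004606, chr3R:30765926-30789202, plus strand), and it held the most summits of the 10. Its 9 summits fell into 4 places: upstream, at the start, in the body and past the 3' end. The strongest (750, rank 403) and its neighbour 209 bp away (418, rank 1705) shared 1 interval, chr3R:30794628-30795223, in an intron of wts, which encodes the kinase Warts of the Hippo pathway. They lay 5685 and 5894 bp past the end of zfh1. The first was 11629 bp from an internal start site of zfh1 and 28961 bp from the 5' end of that gene. The other was 11523 bp from the nearest start site of wts. The first ranked 439, 326 and 584 in the replicates and the other 3068, 1331 and 1779, so all 3 replicates placed both among their strongest. A summit this strong or stronger was found in the windows of 8.48% of all genes.

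Inside zfh1 a pair of summits 201 bp apart lay 1406 and 1205 bp upstream of the internal start site of the shorter transcripts, which begins 17332 bp into the gene. Their signal values were 415 (rank 1728) and 309 (rank 3161). The first ranked 2989 in replicate 1 and 1597 in replicate 3 and had no summit within 100 bp in replicate 2, whereas the other ranked 1249 in replicate 2 and 6260 and 6228 in replicates 1 and 3. Replicates 1 and 3 thus held both summits of the pair among their strongest, and replicate 2 held the second alone. Both lie within the antisense RNA gene asRNA:CR45189. Nearer the first start site, an intronic summit 1377 bp downstream (322, rank 2941) ranked 2304, 3230 and 5280, and a promoter summit 177 bp upstream (197, rank 6684) ranked 5781 and 4688 in replicates 1 and 2 and had none within 100 bp in replicate 3. Upstream of the gene, summits at 4694, 4477 and 6797 bp from the start site had signal values of 409, 279 and 258, and each was recovered in all 3 replicates.

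Sequences at 3 zfh1 summits are given: the strongest, the promoter summit, which alone among the 31 holds the longer Knirps word, and the intronic summit with the forkhead word next to its middle. The strongest, chr3R:30794787-30794987 inside wts, holds GAGAG 4 times, overlapping matches counted, the nearest beginning 10 bp after the summit. The promoter window, chr3R:30765649-30765849, holds AGAGCA in 2 places, beginning 94 and 86 bp before the summit, the second as part of TAGAGCA, and GAGAG in 3 overlapping or nearby places on the minus strand after the summit. In the intronic window, chr3R:30767203-30767403, GTAAACA begins 5 bp after the summit and CAGGTA, the word of the pioneer factor Zelda, 99 bp before it.
zfh1 strongest summit, in wts: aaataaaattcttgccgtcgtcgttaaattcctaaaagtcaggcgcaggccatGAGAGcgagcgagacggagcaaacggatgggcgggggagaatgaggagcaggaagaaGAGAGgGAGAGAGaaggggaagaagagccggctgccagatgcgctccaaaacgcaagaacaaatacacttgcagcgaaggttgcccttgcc
zfh1 promoter summit: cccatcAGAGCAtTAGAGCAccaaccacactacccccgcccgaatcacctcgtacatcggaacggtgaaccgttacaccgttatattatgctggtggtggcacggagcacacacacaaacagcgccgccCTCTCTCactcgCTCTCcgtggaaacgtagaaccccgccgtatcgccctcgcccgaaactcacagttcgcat
zfh1 intronic summit: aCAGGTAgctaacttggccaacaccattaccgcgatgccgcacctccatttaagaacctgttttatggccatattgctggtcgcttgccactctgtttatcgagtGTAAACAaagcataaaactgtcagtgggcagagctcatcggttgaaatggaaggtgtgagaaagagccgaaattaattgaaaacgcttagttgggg

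The gene nau encodes Nautilus, the single fly member of the MyoD family of bHLH muscle factors (FBgn0002922, chr3R:23712814-23718357, minus strand), and both of its summits belonged by position to a neighbour. They lay 5430 and 7637 bp upstream of the 5' end of nau, inside CG10365, and neither had the start site of nau as its nearest. The stronger (373, rank 2158) stood 456 bp downstream of the start site of CG10365 and ranked 1871, 2350 and 2685 in the replicates. The weaker (284, rank 3698) was intronic in CG10365 and ranked 3521 and 3327 in replicates 1 and 2 but 8848 in replicate 3, outside its strongest 7129. With a window of 5 kb neither would count for nau. Inside the body of nau only a weak pooled summit was listed (59.9, rank 24293).

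The weaker nau window, chr3R:23725894-23726094, is shown because it holds the Knirps core AGAGCA, read on the minus strand, beginning 24 bp after the summit.
nau second summit, in CG10365: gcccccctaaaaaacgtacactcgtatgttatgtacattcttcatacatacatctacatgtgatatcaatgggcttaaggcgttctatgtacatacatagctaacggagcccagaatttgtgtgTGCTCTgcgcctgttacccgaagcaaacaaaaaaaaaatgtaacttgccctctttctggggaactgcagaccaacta

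The gene Hand, which encodes a bHLH factor of heart, lymph gland and visceral muscle cells (FBgn0032209, chr2L:10292679-10295385, minus strand), had no summit in its window in the optimal list, the pooled list or any of the 3 replicate lists. A window without a pooled summit was not rare, since 2682 protein-coding genes (19.2%) had none, against a median of 5 summits. The stretch around Hand without a pooled summit was 75127 bp long, and 190 of 29994 intervals between neighbouring pooled summits (0.633%) were at least as long. A long interval can cover more genes than a short one, so this is not the share of genes in such stretches, which was not counted. In the replicate lists the stretch was 29786, 45643 and 80014 bp long. Its edge upstream of Hand was alike in all of them, 11319 bp away in the pooled list and 11333, 11271 and 11338 bp away in the replicates. That pooled summit, 110 bp upstream of the start site of CG5390, had a signal value of 187 and rank 7203, just outside the optimal list. The nearest optimal summit was 38303 bp from Hand, near GATAd, and was a strong one (1147, rank 112).

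Mef2 encodes the MADS-box factor that drives differentiation in all muscle lineages (FBgn0011656, chr2R:9913496-9958858, minus strand), and the strongest summit of the 10 windows lay beside it. This summit (1615, rank 36) lay 1086 bp upstream of the 5' end of Mef2 but only 134 bp upstream of a start site of its neighbour Pal1, which encodes an enzyme of neuropeptide amidation, and inside the body of Pal1. Its peak interval was chr2R:9959692-9960149. It ranked 21, 46 and 50 in replicates 1 to 3, and 0.717% of all genes had a summit as strong in their window. For the strongest summits of ths, nau, tin and pyr that share was 20.8%, 31.4%, 32.7% and 42.7%. None of these shares allows for window length. Within Mef2, the strongest (597, rank 727) lay in an intron 3282 bp downstream of the first start site and ranked 902, 723 and 806.

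The other 4 Mef2 summits were weaker, and replicate 3 lacked 3 of them among its strongest 7129. An intronic pair 217 bp apart lay 4492 and 4709 bp upstream of the internal start site found 14094 bp into the gene, with signal values of 425 (rank 1650) and 279 (rank 3799). The first ranked 1349, 1753 and 2378, and the other ranked 2166 and 3727 in replicates 1 and 2 but 10263 in replicate 3. A summit in a 5' UTR (308, rank 3181) ranked 2294, 3328 and 9261. A summit 199 bp upstream of the third start site (205, rank 6301) ranked 5300 and 5028 and had no replicate 3 summit within 100 bp. Replicate 3 therefore recovered only 3 of the 6, the Pal1 summit and the strongest 2 within the gene, and replicates 1 and 2 recovered all of them.

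**Figure D4:**
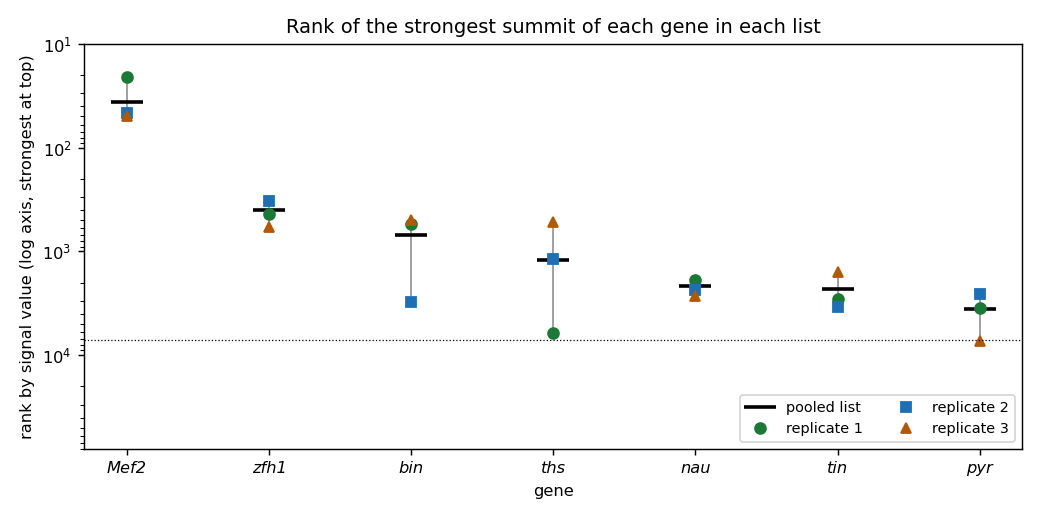
Rank by signal value (y axis, log axis, strongest at the top) of the strongest optimal summit of each gene (x axis) in the pooled list (black bars) and in replicates 1, 2 and 3 (points), with the dotted line at rank 7129. The 3 replicates lie close together for Mef2 (21 to 50) and zfh1 (326 to 584) and far apart for bin (502 to 3043) and ths (525 to 6109).

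Of the FGF genes, the receptor gene htl had no optimal summit and its ligand genes pyr and ths had 3 and 6. The gene htl encodes Heartless, the receptor through which both ligands guide mesoderm spreading (FBgn0010389, chr3R:18045216-18052984, minus strand). Its 7 pooled summits had signal values from 114 (rank 13314) to 63.9 (rank 23117), and none reached the strongest 7129 peaks of any replicate. The best ranks in its window were 14597, 10848 and 19791. The strongest lay 1384 bp past the 3' end, 2 lay within the body, and 2 lay 156 and 440 bp upstream of the first start site. The nearest optimal summit was 69009 bp away, at the promoter of sr, a gene of tendon cells (244, rank 4791).

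The ligand gene pyr encodes Pyramus (FBgn0033649, chr2R:11712263-11726345, plus strand) and had 2 intronic summits of almost equal strength, with a weaker one downstream. The intronic summits lay 4437 and 6914 bp downstream of the start site, with signal values of 292 (rank 3561) and 291 (rank 3574). In the replicates the first ranked 3526, 2557 and 7272, so replicate 3 fell just short of its strongest 7129, and the other ranked 3841, 3907 and 4258. The downstream summit (201, rank 6485), 4817 bp past the end of the gene, ranked 8565, 5672 and 7831 and was the only 1 of the 31 recovered in a single replicate. At the start site of pyr, 7 bp upstream, a summit of 188.2 at rank 7138 just missed the optimal list. It ranked 10490 and 11693 in replicates 1 and 2 and 4872 in replicate 3. The weakest optimal summits of the 10 windows were those of ths at rank 6745, zfh1 at 6684 and pyr at 6485, and the next below the threshold after that at pyr was a zfh1 summit at rank 8503.

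The ligand gene ths encodes Thisbe and begins 30471 bp past the end of pyr (FBgn0033652, chr2R:11756817-11814424, plus strand), and its summits were gathered in the distal part of the gene. An internal start site lies 33549 bp into ths, and 5 of the 6 summits lay between 1452 and 14734 bp downstream of it, within a stretch of 13282 bp. The first 33549 bp of the gene held none in the optimal list and 7 in the pooled list, against 17 pooled summits in the remaining 24058 bp. The strongest (487, rank 1210) lay 6004 bp downstream of the internal start site and ranked 6109, 1180 and 525, the widest spread of ranks among the strongest summits of the 7 genes. A summit 201 bp from it (219, rank 5723) ranked 6106 and 3727 in replicates 2 and 3 and 25246 in replicate 1. In replicate 1 a summit of rank 4007 lay close by, 5807 bp downstream of the internal start site and more than 100 bp from either. The next in strength (411, rank 1765) lay 7135 bp downstream of that start site and ranked 2213, 1425 and 2051, recovered in all 3 replicates. The remaining summit outside the gene (227, rank 5405) lay 6562 bp upstream of the first start site and ranked 4472, 4136 and 10964. The weakest summits of the gene, 1452 bp (205, rank 6307) and 14734 bp (196, rank 6745) downstream of the internal start site, were each recovered in 2 replicates.

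Of the 31 summits, 12 (38.7%) had another optimal summit within 300 bp, near the 30.7% of all optimal summits. They formed 6 pairs, 3 at zfh1 and 1 each at bin, Mef2 and ths. The distances within the pairs ran from 201 to 217 bp. Distances within pairs elsewhere in the optimal list are not given here, so this range is not shown to be particular to these genes. Chromatin was sheared to 200 to 800 bp, and whether this spacing has to do with fragment length or the peak caller was not tested.

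The share of the 31 summits with a Knirps word was near that of all optimal summits. The Knirps core AGAGCA stood within 100 bp of 5 of the 31 summits (16.1%), against 14.1% of all optimal summits and 11.1% of 201-base windows centred on 19252 start sites. The longer TAGAGCA, which contains it, was found at 1 (3.23%), against 1.75% and 1.55%. GAGAG of the GAGA factor was found at 13 (41.9%), against 37.1% of optimal summits and 25.0% of start sites. CAGGTA of Zelda was found at 3 (9.68%), against 7.71% and 4.26%.

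Words of mesodermal factors were each found at 5 of the 31 summits or fewer. CACTTGA, bound by Tinman, was found at 3 summits (9.68%), those of bin, pyr and ths, against 3.80% of all optimal summits and 3.30% of start sites. GTAAACA, bound by forkhead proteins such as Biniou, was found at 5 (16.1%), with 2 each at zfh1 and Mef2 and 1 at ths, against 7.69% and 6.12%. CATATG was found at 3 (9.68%), at tin, ths and nau, against 7.63% and 4.06%. TATTTATA, a form of the Mef2 site, was at none of the 31, where 3.04% of optimal summits and 4.87% of start sites held it. All words were searched on both strands, a match is a description of letters and not a binding site, and with 31 windows each count rests on a few summits. The median share of G and C in the windows was 45.3%, the same as over all optimal summits, with a range from 23.9% to 57.7%.

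Of the 35 other regulator genes of mesoderm, heart and muscle listed for comparison, 31 had an optimal summit in their windows (88.6%), against the 59.8% of all protein-coding genes given above. Many of their windows were long, with 14 of 35 over 40 kb. Of these 14 genes 13 had a summit, against 74.2% of all genes with such windows. From 24 to 40 kb it was 14 of 16 against 70.4%, and up to 24 kb 4 of 5 against 54.8%. They held a median of 3 summits, and several of these genes are neighbours, so that their windows share summits (128 counted gene by gene, 117 distinct). None of the 117 lay in the windows of the 10 genes. The strongest was 28 bp upstream of a start site of sd (1044, rank 143), which encodes the DNA-binding partner of Vestigial. It was followed by a summit in the window of the homeobox gene C15 but nearest to sp3 (1019, rank 158), and by intronic summits in mbc (762, rank 384) and kirre (714, rank 466), which act in myoblast fusion. The T-box gene H15 of the heart had the only optimal summit of its window 481 bp upstream of its start site (696, rank 494). No optimal summit lay in the windows of Him, lmd, slou and svp. Of the 10 genes, tin, bap and zfh1 encode homeodomain proteins and account for 12 of the 31 summits, 9 of them at zfh1.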

How the data were processed

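Per the labels, ChIP-seq was done with an antibody against GFP on kni-GFP embryos in 3 biological replicates, with sonicated chromatin. The antibody field of the labels names kni in place of GFP. Peaks, background included, were called by the authors against a control, once per replicate and once on pooled alignments, per their deposited notes, and the optimal list passed their irreproducible discovery rate threshold. For the aligner, peak caller and threshold, names and values are not given in the sources used here. A peak's deposited signal value ranks it within its list, and the deposited −log10 q value is nearly constant in the optimal list and was not used. The dm3 lists were not used here.

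Coordinates are dm6, 1-based. Genes are from Ensembl release 115 and sequence from Release 6, whose arm lengths cover the peaks. Scripts ran in Python 3.11.15 with pandas 2.3.3 and numpy 2.4.6. A summit at most 500 bp from a start site was placed as promoter, and any other by the annotation at its base, UTRs and exons before introns. No statistical test was made, because the design has 1 group. Counts are set beside those of all protein-coding genes or summits. The functions for windows, matching and words were tested on simulated data. The lists and words, like the genes, were chosen with earlier results of these data known. For each gene its 3 strongest summits were to be named, and for the longer list the 5 genes with the strongest summit and 3 without one. Further summits, svp and sr were named after their values were seen.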

Additional observations from a re-analysis of the deposited data

How the results depend on the processing

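The count of 7 genes with a summit fell to 4 for the gene body alone and otherwise stayed within 1.5 times. The 31 summits became 20 with a window of 2 kb, 15 in the body alone, 17 among the strongest 3564 of the optimal list, 126 in the whole pooled list, 17 if found in all 3 replicates, and 19 to 25 when each replicate was left out in turn (19 without replicate 1, 20 without replicate 2, 25 without replicate 3), counting those found in both others. The 17 summits found in all 3 replicates became 26 in the whole replicate lists, and 19 to 25 when each replicate was left out. With 50 bp either side of the summit AGAGCA was found at 2 of 31 summits (6.45%, against 7.31% of all optimal summits), TAGAGCA at 0 (against 0.912%), GAGAG at 5 (16.1% against 21.3%), CAGGTA at 1 (3.23% against 3.89%), CACTTGA at 1 (3.23% against 1.71%) and GTAAACA at 3 (9.68% against 4.60%). With 200 bp the counts were 8 for AGAGCA (25.8% against 25.1%), 22 for GAGAG (71.0% against 56.2%) and 6 for CACTTGA (19.4% against 7.55%). They were 1 for TAGAGCA (3.23% against 3.27%), 4 for CAGGTA (12.9% against 13.2%) and 7 for GTAAACA (22.6% against 12.3%). TATTTATA stayed at 0 with either window, against 1.53% of all optimal summits with 50 bp and 6.52% with 200 bp. At 200 bp the windows of paired summits overlap, so a match can count for both, here and over all optimal summits. CATATG stayed at 3 (9.68%) with either window, against 4.19% of all optimal summits with 50 bp and 13.5% with 200 bp. The count of 31 of 35 other genes stayed within 1.5 times under every alternative run. Its lowest values were 21 for the gene body alone and 24 among the strongest 3564 of the optimal list. Over all protein-coding genes 14.7% had an optimal summit in the body. No paired analysis was possible because the samples form 1 group. Depth is unknown, so a missing summit is not shown to be absent binding.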
